A study of Mus musculus with 2 samples.

Results

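Erythroid progenitors are the bone marrow cells that have begun the path to the red blood cell. Klf1 and Gata1, both transcription factors, switch on genes of the red cell membrane, of iron uptake and of heme synthesis, while genes of stem and myeloid cells are switched off. Heme is assembled from glycine and succinyl-CoA in a chain of enzymes that starts and ends in the mitochondrion, and the bulk of globin is made later, in erythroblasts. Erythropoietin carries these cells through the stage in which they divide fastest and become dependent on its receptor.

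Erythroid progenitors were examined in the freshly isolated (day 0) cells of a culture experiment on myeloid differentiation. They were selected on measured counts: a cell needed a single hashtag named for day 0, 500 or more detected genes, under 15% mitochondrial UMIs, at least 1 UMI of Klf1 and at least 3 UMIs of Car1 plus Car2, the carbonic anhydrases of the red cell lineage. A UMI is a unique molecular identifier and stands for 1 counted transcript. In the control library 556 of 1646 day 0 cells met this rule, a share of 33.8% (exact binomial 95% interval 31.5% to 36.1%). In the heme library 493 of 1827 did, a share of 27.0% (interval 24.96% to 29.08%). Together they were 1049 of the 25221 cells of both libraries that passed the same filter.

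All cells came from bone marrow of C57BL/6 mice aged 8 to 10 weeks that had been depleted of lineage-positive cells with antibodies to CD5, CD11b, B220, Gr-1, 7-4 and Ter-119. Ter-119 marks erythroblasts and red cells, so later erythroid stages were targeted by the depletion. The cells were then grown with 20 ng/ml GM-CSF, with fresh medium at 40 ng/ml on day 2, and received 300 µM heme-albumin (heme library) or albumin (control library) on day 3. Each library was a pool of hashtagged cells of days 0, 3, 4, 5 and 7, and there was 1 library per group. Day 0 precedes the addition of heme, so the day 0 cells of both libraries were untreated when they were collected, but those of the heme library were pooled with treated cells. Giving both libraries shows how far a value holds in a second library. With 1 library per group no test across samples was possible. Intervals are at the 95% level, cover counting error only, and no p-value is given. None of the labels ties a library to single animals.

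The members were deeply counted cells. Their median was 18855.5 UMIs and 3940.5 genes (control library) and 23595 UMIs and 4932 genes (heme library), against 6762 and 7505.5 UMIs in the other day 0 cells. The rule is set on raw UMIs and so itself favours deep cells. After thinning to 3000 UMIs, 302 control and 255 heme cells met it. Both libraries shared 48 cell barcodes after filtering, of which 3 were members in the control library, 5 in the heme library and 0 in both. Ribosomal protein genes held a median of 33.3% of a member's UMIs (control library) and 28.8% (heme library). Of the members, 93.7% and 28.2% lay at or above a ribosomal share of 30%, the upper limit stated in the study, and 30 and 234 members had over 5000 genes, its other limit. The group in the series with a ribosomal share of 30% or more thus overlaps these cells. Under both limits 30 of 359 control and 170 of 1118 heme day 0 cells met the rule, 8.36% and 15.2%, so the order of the libraries turned.

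Cells that met the rule on counts were far less frequent on the later days. On days 3 to 7, 34 of 9961 control cells (0.341%, interval 0.236% to 0.477%) and 97 of 11787 heme cells (0.823%, interval 0.668% to 1.00%) met the rule. These later cells carried 20107 and 15158 CPM (the usual counts-per-M scale, a gene's UMIs over all UMIs of the summed cells) of the neutrophil gene S100a8, against 358 and 939 CPM in the day 0 members. In the later cells outside the rule S100a8 lay between 1713 and 61574 CPM, and the part of free RNA or mixed droplets in the later cells was not tested.

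**Figure D1:**
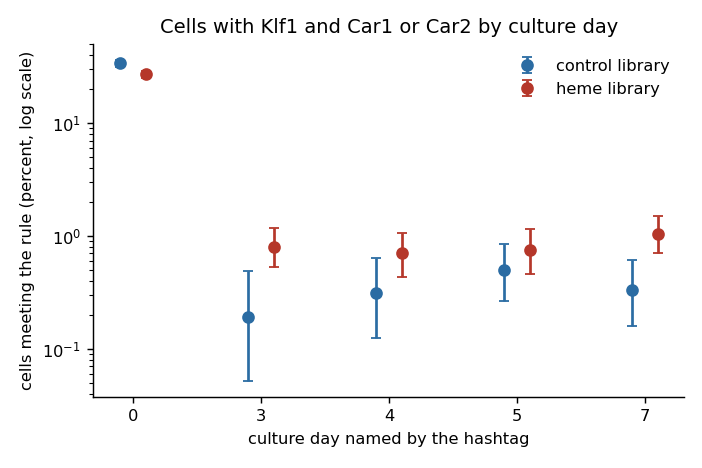
Share of cells that met the rule (percent of filtered cells, log scale) by the culture day named by the hashtag, in the control library (blue) and the heme library (red), with exact binomial 95% intervals. The share was 33.8% and 27.0% on day 0 and between 0.191% and 1.05% on every later day.

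The label held against genes that the rule did not use. Ermap (GRCm38 chr4:119175457-119190011, minus strand), an erythroid membrane protein of the immunoglobulin superfamily, was at 329 CPM in control and 500 CPM in heme members, against 10.2 and 13.9 CPM in the other day 0 cells. It was detected in 94.2% and 93.9% of the members and in 1.54% and 2.90% of the granulocyte progenitors of day 0 (10 or more UMIs of Elane plus Prtn3; 390 and 448 cells; median depth 11478 and 14556.5 UMIs). Members were left out of these granulocyte progenitors, although 9 members of each library had 10 or more UMIs of Elane plus Prtn3. In the granulocyte progenitors so defined 1.03% and 1.56% had a UMI of Klf1, a gene that the rule used. What free RNA, mixed droplets or low expression contribute to these shares was not tested. Thinned to 9500 UMIs per cell, Gata1 was found in 78.1% and 80.2% of the 507 and 449 members deep enough and in 0.766% and 3.29% of the 261 and 365 granulocyte progenitors.

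Of the genes that the rule used, the median member had 4 and 5 UMIs of Klf1 and 103 and 102 UMIs of Car1 plus Car2, and Klf1 reached 3 or more UMIs in 75.5% of the members of each library. Cells just inside it (1 UMI of Klf1, or 3 of Car1 plus Car2; 70 and 73 cells) had 243 and 293 CPM of Ermap and 97.4 and 77.1 CPM of the Rh-associated glycoprotein gene Rhag. Cells with 3 or more UMIs of Car1 plus Car2 but none of Klf1 (191 and 208 cells) had 56.5 and 69.6 CPM of Ermap and 3148 and 3587 CPM of Pf4, the platelet chemokine. Gata1 was not particular to the members, at 79.0 and 82.0 CPM in these cells against 166 and 177 CPM in the members. Rhag was at 19.1 CPM in these cells of both libraries, against 171 and 180 CPM in the members. Cells with Klf1 but 2 or fewer UMIs of Car1 plus Car2 numbered 16 and 33 and had 0 and 7.86 CPM of Ermap. The basophil protease gene Mcpt8 was at 871 and 2521 CPM in them and the neutrophil elastase gene Elane at 6287 and 1648 CPM. Among the members, 9 cells of each library had 10 or more UMIs of Elane plus Prtn3, and 2 of each had 10 or more of Mcpt8 plus Prss34.

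Sequence letters known from erythroid promoters were looked up in the RefSeq promoters of these genes (GRCm38.p6; 250 bases before to 50 after the start). AGATAA is the core that GATA factors bind and CCNCNCCC the core that KLF factors bind, both read on either strand. Over all 32851 promoters of 300 bases, 11.2% held AGATAA and 49.5% held CCNCNCCC. In the erythroid surface and skeleton list, 5 of 16 promoters held AGATAA and 11 held CCNCNCCC. In the heme synthesis list it was 2 and 13 of 15 promoters, and in the list of erythroid regulators 5 and 19 of 25. Several genes have more than 1 promoter, so these are not independent, and a match is a description of letters only. The 250 bases before the start are shown for 3 genes from different functions of the lineage, the erythropoietin receptor (Epor, chr9:21963577-21963826, minus strand), a Rhesus blood group protein (Rhd, chr4:134864286-134864535, plus strand) and the second enzyme of heme synthesis (Alad, chr4:62520064-62520313, minus strand), with matches of either motif in capitals.
Epor: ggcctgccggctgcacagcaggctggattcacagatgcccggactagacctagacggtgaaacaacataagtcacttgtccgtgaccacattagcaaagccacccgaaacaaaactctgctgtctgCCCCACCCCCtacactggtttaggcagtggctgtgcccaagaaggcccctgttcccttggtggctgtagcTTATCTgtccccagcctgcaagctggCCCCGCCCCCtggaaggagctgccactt
Rhd: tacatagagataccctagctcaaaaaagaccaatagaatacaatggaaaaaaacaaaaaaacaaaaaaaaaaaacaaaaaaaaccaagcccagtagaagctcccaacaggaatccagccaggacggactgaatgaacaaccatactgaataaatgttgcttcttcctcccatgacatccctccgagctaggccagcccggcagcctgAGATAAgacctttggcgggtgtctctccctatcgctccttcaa
Alad: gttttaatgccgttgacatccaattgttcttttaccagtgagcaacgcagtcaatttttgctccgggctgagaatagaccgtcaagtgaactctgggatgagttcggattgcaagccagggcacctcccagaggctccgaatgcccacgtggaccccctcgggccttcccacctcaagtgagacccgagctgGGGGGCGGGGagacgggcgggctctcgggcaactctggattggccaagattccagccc
In the 250 bases shown Epor held both motifs, Rhd held AGATAA and Alad held CCNCNCCC in 2 overlapping matches, written here as its reverse complement. Over all 300 bases the Rhd promoter also held 1 match of CCNCNCCC. The promoters of Ermap, Rhag, Klf1 and Abcb10 held 0 matches of either motif over their 300 bases. Epor, Rhd and Alad thus do not stand for every gene of these lists.

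The comparison of members with the other day 0 cells shows how this profile stood out from stem, myeloid, basophil and lymphoid cells of the same library. Of 7353 genes with a mean of 10 CPM or more in both libraries, 504 (6.85%) were at least 2-fold higher and 1033 (14.0%) at least 2-fold lower in the members of both libraries, with the rule genes left out. The median log2 ratio over all these genes was 0.07. The cells were split by 3 erythroid genes, so genes that go with those were bound to differ, and the counts are a description. A scaling by TMM factors (trimmed mean of M values) moved the median to 0.31 and the counts to 843 and 853, and a rule applied to cells thinned to 3000 UMIs gave 174 and 638.

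Genes of the red cell surface and membrane skeleton stood highest. Of 18 with sufficient counts 17 were at least 2-fold higher and none was lower, with a median log2 ratio of 4.43. That median was 1.67 when the rule was applied to thinned cells and 7.03 against day 0 cells without any UMI of Klf1, Car1 or Car2. Rhag was at 171 CPM in control and 180 CPM in heme members, 47.1-fold (33.1 to 69.6) and 45.2-fold (34.2 to 60.8) above the other cells. Rhd, its partner in the membrane complex, reached 247 and 177 CPM, and the water channel gene Aqp1 reached 282 and 414 CPM. Epor itself was at 87.1 and 78.1 CPM and was detected in 73.4% and 74.2% of the members, 20.7-fold (14.8 to 29.8) and 24.4-fold (17.9 to 34.2) above the other cells.

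Slc4a1 (chr11:102348824-102366203, minus strand), the anion exchanger band 3 that is made in bulk by erythroblasts, was among the lower genes of that list. It was at 30.3 and 24.5 CPM and detected in 14.9% and 12.0% of the members. Ank1, the ankyrin that anchors band 3 to the skeleton, was detected more widely, at 71.0 and 124 CPM in 64.4% and 80.3% of the members.

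Most genes of heme synthesis were high, and the first step was the exception. Of 15 genes with sufficient counts 12 were at least 2-fold higher, 1 was lower and 2 were neither, with a median log2 ratio of 2.21. Cpox, coproporphyrinogen oxidase, was at 374 CPM in control and 464 CPM in heme members, 12.6-fold (11.1 to 14.4) and 13.1-fold (11.9 to 14.5) above the other cells. Alad, whose upstream sequence is given above, was at 288 and 247 CPM, 6.65-fold (5.97 to 7.43) and 5.71-fold (5.22 to 6.27) higher. The cytosolic and last mitochondrial steps followed, with Urod at 161 and 121 CPM, Uros at 56.7 and 34.6 CPM, Ppox at 51.2 and 46.5 CPM, and Fech, which inserts iron, at 102 and 132 CPM. All of these 4 were between 3.46-fold and 6.31-fold higher in each library.

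The first enzyme behaved differently. Alas1, the synthase used by most tissues, was at 17.3 and 16.8 CPM in the members against 133 and 131 CPM in the other cells, a ratio of 0.130 (0.111 to 0.152) and 0.128 (0.110 to 0.148). Alas2 (chrX:150547375-150570638, plus strand), the erythroid synthase, was only at 10.4 and 9.26 CPM in the members, below the count filter of the comparison. It was detected in 10.8% and 11.0% of them. Its ratio to the other cells was 3.07 (2.02 to 4.80) and 2.33 (1.66 to 3.31). Thus the genes of the middle and the end of the pathway were at 34.6 to 464 CPM while both synthase genes were under 20 CPM.

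Of the carriers in this list, Tmem14c, a mitochondrial porphyrin transporter, was highest with 959 and 546 CPM. Abcb10 was at 69.4 and 96.8 CPM, and Slc25a38, the mitochondrial glycine carrier, at 54.6 and 48.6 CPM. Fam210b and Abcb6 were also at least 2-fold higher. The iron importer of the mitochondrion, Slc25a37 (mitoferrin 1), did not reach 2-fold in both libraries, with 43.1 and 57.5 CPM against 24.5 and 39.6 CPM in the other cells.

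**Figure D2:**
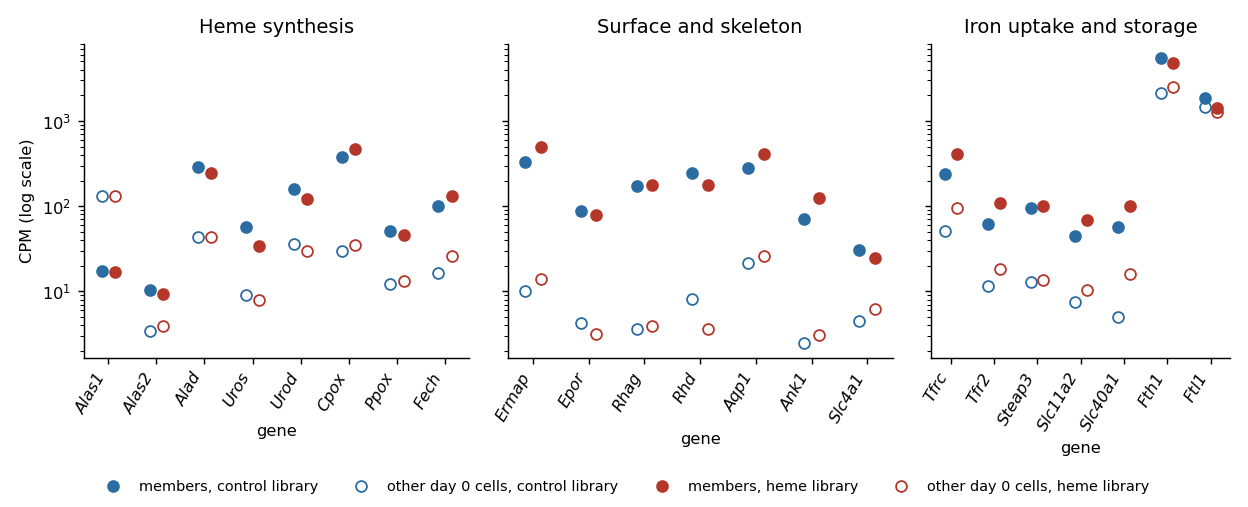
CPM (log scale) of genes of heme synthesis, in the order of the pathway, of the red cell surface and skeleton, and of iron uptake and storage, in members (filled) and other day 0 cells (open) of the control (blue) and heme (red) libraries, 1 summed value each. Alas1 is the 1 gene of these panels in which members lie below the other cells, and Alas2 lies near 10 CPM while Cpox lies above 300 CPM.

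Genes of iron uptake were among those of iron and heme handling that were higher in the members. Of 18 genes of iron and heme handling, 7 were at least 2-fold higher, 1 was lower and 10 were neither, and the median log2 ratio was 0.92. With the rule applied to thinned cells 4 were higher. Tfrc, the transferrin receptor, was at 241 and 406 CPM in members, 4.70-fold (4.25 to 5.22) and 4.26-fold (4.00 to 4.53) above the other cells. Steap3, which reduces the iron taken up, was at 95.4 and 102 CPM, 7.49-fold (6.14 to 9.22) and 7.51-fold (6.40 to 8.85) higher. The second transferrin receptor Tfr2 was at 61.1 and 108 CPM and the iron importer of the endosome Slc11a2 at 44.2 and 69.5 CPM. The iron exporter gene Slc40a1 (ferroportin) was raised beside the importers, at 56.5 and 102 CPM against 5.02 and 16.1 CPM. Ncoa4, the receptor that carries ferritin to the lysosome, was the lower gene, at 20.2 and 36.7 CPM against 64.0 and 97.0 CPM. The ferritin heavy chain gene Fth1 was the most abundant of the list with 5454 and 4768 CPM, 2.56-fold (2.52 to 2.61) and 1.88-fold (1.86 to 1.91) higher.

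Among the erythroid regulators, 7 of 16 were at least 2-fold higher, 1 was lower and 8 were neither. Gata1 was at 166 and 177 CPM, 8.72-fold (7.42 to 10.3) and 8.45-fold (7.44 to 9.62) higher. Hemgn, a nuclear protein of erythroid cells, was at 214 and 216 CPM and Gfi1b, a repressor of the lineage, at 124 and 143 CPM. Zfpm1, the cofactor of GATA1, was at 209 and 246 CPM, Tal1 at 90.2 and 159 CPM, Ldb1 at 93.9 and 128 CPM and Sox6 at 27.8 and 35.8 CPM. Factors that are shared with other progenitors stood near the other cells, with Lmo2 at 308 and 309 CPM against 294 and 285 CPM and Myb at 245 and 384 CPM against 316 and 485 CPM. Lyl1, a stem cell factor related to Tal1, was the lower gene at 40.6 and 39.0 CPM. Cbfa2t3, Nfe2, Bcl11a, Zbtb7a, E2f2 and Foxo3 did not reach 2-fold in both libraries, with Bcl11a and Zbtb7a higher and Nfe2 and Cbfa2t3 lower in value.

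Further erythroid enzymes were abundant. Blvrb, which reduces biliverdin, was at 1172 and 654 CPM, against 83.6 and 49.0 CPM in the other cells. Prdx2, the peroxidase of the red cell, was at 1678 and 1031 CPM, 4.71-fold (4.53 to 4.89) and 4.63-fold (4.44 to 4.82) higher. Pklr, the red cell pyruvate kinase, was at 56.3 and 70.9 CPM against 1.52 and 1.48 CPM. Cat and Bpgm did not differ by 2-fold, and Bpgm, which makes the 2,3-bisphosphoglycerate of mature red cells, was at 16.1 and 14.6 CPM.

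Epor stood apart from the genes of its signalling pathway. In the list of erythropoietin receptor signalling Epor was the 1 higher gene of 7 with sufficient counts. Lyn, a Src family kinase, was at 11.1 and 17.3 CPM against 51.1 and 84.7 CPM, Pim1 at 25.3 and 40.2 CPM against 96.5 and 135 CPM, and Ptpn6, the phosphatase that ends the signal, at 49.3 and 69.6 CPM against 122 and 153 CPM. Jak2, Stat5a and Stat5b were neither. Of 4 late maturation genes with sufficient counts 1 was lower and 3 were neither, with Bnip3l, which removes mitochondria from reticulocytes, at 138 and 134 CPM against 122 and 119 CPM. The 81 ribosomal protein genes were all neither, with a median log2 ratio of 0.07. Both chains of the GM-CSF receptor were low in the members, with Csf2ra at 10.1 and 17.3 CPM against 48.5 and 56.3 CPM and Csf2rb at 10.5 and 26.5 CPM against 49.0 and 101 CPM. GM-CSF was the growth factor of the culture that followed. Any link of these receptor levels to the rarity of such cells on later days was not tested.

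Stem and early progenitor genes were low, with the exception of Kit. Kit, the receptor of stem cell factor, was neither higher nor lower, at 74.1 and 129 CPM against 85.9 and 113 CPM. The other 11 of 12 early progenitor genes with sufficient counts were at least 2-fold lower. Cd34 was at 2.48 and 4.13 CPM against 152 and 195 CPM, Gata2 at 18.3 and 40.2 CPM against 89.0 and 157 CPM, and Spi1, the myeloid factor PU.1, at 9.54 and 21.7 CPM against 195 and 193 CPM. Of the cell cycle genes, 2 of 20 S phase genes (Cdc6 and Dut) and none of 20 G2/M genes reached 2-fold in both libraries, although the median log2 ratios were 0.55 and 0.57. Mki67 was at 412 and 488 CPM, 2.09-fold (1.97 to 2.21) and 1.60-fold (1.53 to 1.66) above the other cells. Under TMM factors 5 and 4 of these genes reached 2-fold.

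The markers of other lineages were low in the members. All 8 granulocyte progenitor, 6 monocyte and macrophage, 6 megakaryocyte and 5 lymphoid genes with sufficient counts were at least 2-fold lower, and so were 7 of 8 basophil and mast cell genes. The exception was Il1rl1, the receptor of interleukin 33, at 23.8 and 47.0 CPM against 7.94 and 18.2 CPM. Summed over the lists, the members held 274 and 213 CPM of granulocyte progenitor genes against 11021 and 9844 CPM in the other cells, and 66.5 and 75.9 CPM of basophil genes against 2926 and 2480 CPM. Mature neutrophil genes were the least depleted, with 881 and 2195 CPM in members and 3 of 6 lower by 2-fold in both libraries. S100a8 was detected in 99.8% of the members of each library, at 358 and 939 CPM, and at 539 and 1069 CPM in the granulocyte progenitors.

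**Figure D3:**
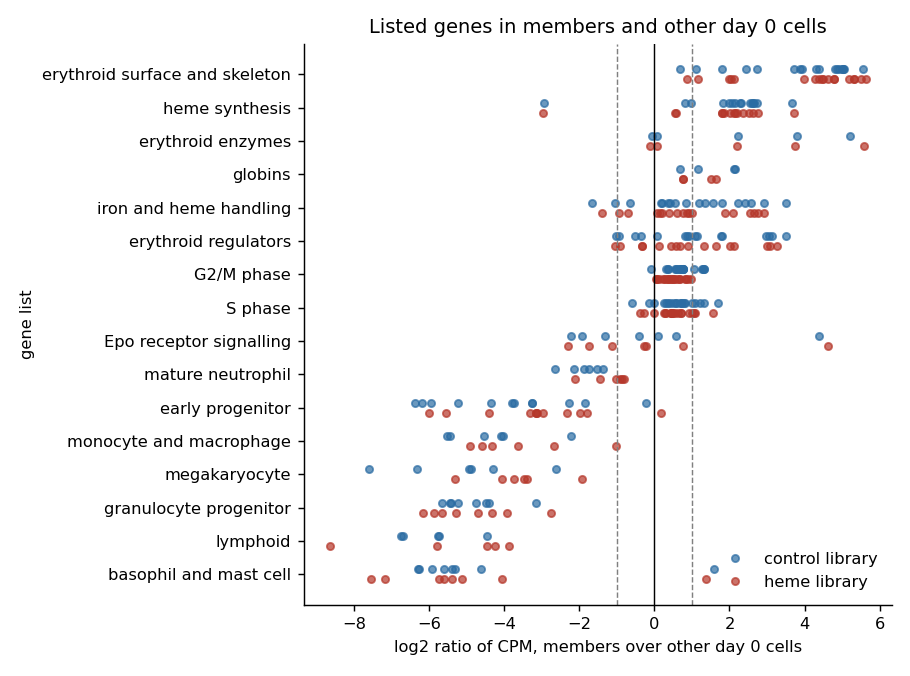
Log2 ratio of CPM in members over other day 0 cells for each listed gene with sufficient counts, 1 point per gene in the control (blue) and heme (red) libraries, with dashed lines at 2-fold. The points of the erythroid surface and heme synthesis lists lie right of the lines with few exceptions, the cell cycle lists straddle the right line, and the lists of other lineages lie left of 0, except Il1rl1 and, in the heme library, Kit.

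Outside the lists, the genes with the highest ratios included further red cell proteins. Sphk1, which makes the sphingosine-1-phosphate that red cells store, was at 126 and 169 CPM, 47.1-fold (31.2 to 74.5) and 55.6-fold (40.5 to 78.4) higher. Cldn13, a claudin of mouse erythroid cells, was at 255 and 174 CPM, 38.3-fold (29.5 to 50.7) and 67.5-fold (47.9 to 98.3) higher. Smim1, which carries the Vel blood group, was at 277 and 233 CPM, and the glutamine transporter Slc38a5 at 111 and 151 CPM. C1qtnf12 was the most abundant of this group at 645 and 475 CPM. The others were Sh2d4a, Tmem56, Tspan8, Paqr9, Nxpe2, Slc25a21, Crip2, Myh10, Ctse and Nfia, at 52.3 to 260 CPM and between 18.9-fold and 60.5-fold higher. The lowest ratios belonged to transcripts of plasma cells. Igkc was at 16.5 and 18.8 CPM against 9503 and 2624 CPM, and Jchain, Ighm and Igha were also low, followed by Bex6, Cd69, Parp8, Adgrl4, BC035044 and Ly86. Low Igkc, Jchain and Igha were not particular to the members. In the granulocyte progenitors Igkc was at 27.8 and 23.9 CPM, while Ighm was at 122 and 199 CPM.

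Globin transcripts were few and uneven among the members. Hba-a1, Hba-a2, Hbb-bt and Hbb-bs together made up 1769 CPM in control and 880 CPM in heme members. The median member had 3 and 2 globin UMIs, 22.5% and 25.2% had 0, and the 5% of members with the most held 52.2% and 68.7% of all. In the granulocyte progenitors the sum was 558 CPM in the control library, of which 94.2% lay in 20 cells; in the heme library it was 50.01 CPM. Against the other day 0 cells Hba-a1 and Hbb-bt were at least 2-fold higher in both libraries, with 4.41-fold (4.11 to 4.73) and 2.86-fold (2.66 to 3.07) for Hba-a1. Hbb-bs was 2.25-fold (2.15 to 2.34) and 1.69-fold (1.61 to 1.77) higher. Since the adult alpha genes and the adult beta genes are near-identical pairs, their split is uncertain. The embryonic genes Hbb-bh1, Hbb-y and Hba-x had 0 or 1 UMI in the members of each library.

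Globins were also the genes that varied most from member to member. After each cell had been thinned to 9500 UMIs (507 and 449 members deep enough), the variance over the mean of Hbb-bs was 84.2 and 150 in the control and heme libraries, against a median of 1.09 in both over 2405 genes. Hba-a1, Hbb-bt and Hba-a2 followed. The next were the replication-dependent histone gene Hist1h2ap with 11.3 and 14.8, the granulocyte genes Prtn3 and Plac8, Tmsb4x, Apoe, and then Car1 itself with 8.36 and 6.03. Fth1 and mt-Co3 closed the first 12. The variation of the granulocyte genes rested on few cells. Their 90th percentile was 1 to 2 UMIs and their highest count 24 to 38 UMIs in each library. Their median was 0 UMIs, as was that of the globins.

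Members with many globin UMIs differed from the rest in other genes. With 100 or more globin UMIs there were 50 control and 21 heme members, at a median depth of 16631 and 22793 UMIs, against 125 and 124 members with 0 at 15805 and 18839. In the globin-rich cells Alas2 was at 87.6 and 116 CPM, against 0.511 and 0.844 CPM in the cells without globin. Slc4a1 was at 296 and 344 CPM against 1.02 and 0.844 CPM. Kit went the other way, at 4.73 and 28.2 CPM against 119 and 207 CPM, and so did Myb, at 28.4 and 111 CPM against 423 and 602 CPM. Mki67 was at 804 and 865 CPM in the globin-rich cells and at 259 and 377 CPM in those without. These classes were formed after the globin values had been seen.

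Car1, a gene that the rule used, ran against globin among the members. When the members of each library were ordered by the share of Car1 in their UMIs and cut into 3 equal groups, globins summed to 3180, 1903 and 330 CPM (control library) and to 2104, 576 and 110 CPM (heme library), from the lowest to the highest Car1 share. The median depth of these groups lay between 17582.5 and 19614 UMIs and between 21174 and 24395.5 UMIs. Of 6755 genes, 62 (0.918%) were at least 2-fold lower and 2 (0.0296%) at least 2-fold higher in the group with the highest Car1 share, in both libraries. The 2 higher ones were Rpp40, a subunit of ribonuclease P, and Clstn1.

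Genes that red cells make in bulk late in their maturation were among the lower ones. Slc4a1 was at 56.9, 32.9 and 3.09 CPM (control library) and at 59.4, 16.9 and 1.42 CPM (heme library). Hemgn, Sox6 and E2f2 of the regulators, all 4 adult globins, 5 surface and skeleton genes and the heme pathway genes Uros, Slc25a37, Abcb10 and Fam210b were also lower. Alas2 was at 17.7, 12.3 and 1.69 CPM and at 21.1, 6.68 and 1.42 CPM, too low for the filter. The granulocyte genes Mpo, Prtn3 and Ctsg and the myeloid genes Irf8 and Spi1 were also among the 62.

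Kit and Myb had the opposite order. Kit was at 49.0, 61.5 and 110 CPM (control library) and at 95.2, 112 and 174 CPM (heme library), a ratio of 1.83 (1.61 to 2.08) in the latter. Myb was at 208, 219 and 307 CPM and at 300, 327 and 515 CPM. Klf1, Gata1 and Ermap stayed within 10% from the lowest to the highest group in the heme library, with Klf1 at 213, 235 and 217 CPM. In the control library the ratio of highest to lowest was 0.909 (0.825 to 1.00) for Klf1, a rule gene, and 0.900 (0.827 to 0.979) for Ermap. Car2 was at 2954, 2889 and 2640 CPM and at 2480, 2589 and 2247 CPM. Car1 set the order of the groups and the rule used both genes, so this does not show how they vary together.

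Granulocyte transcripts moved with this order too. Mpo was at 168, 6.59 and 8.99 CPM (control library) and at 85.1, 75.2 and 25.1 CPM (heme library). Without the 11 and 14 members that had 10 or more UMIs of Elane plus Prtn3, of Mcpt8 plus Prss34 or of Pf4, Mpo was at 12.0 CPM in the lowest and 8.03 CPM in the highest group of the control library and at 29.7 and 20.4 CPM in the heme library. The cells left out were picked in part by granulocyte genes, of which Mpo is another. Irf8 was still lower in the highest group of this set, at 9.81 against 2.01 CPM (control library) and at 12.3 against 2.71 CPM (heme library). In that set 54 genes were at least 2-fold lower, 48 of them among the 62, and Hbb-bs was at 1348 against 150 CPM and at 994 against 36.7 CPM. A cut into 2 equal groups gave 33 lower genes and 0 higher ones.

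**Figure D4:**
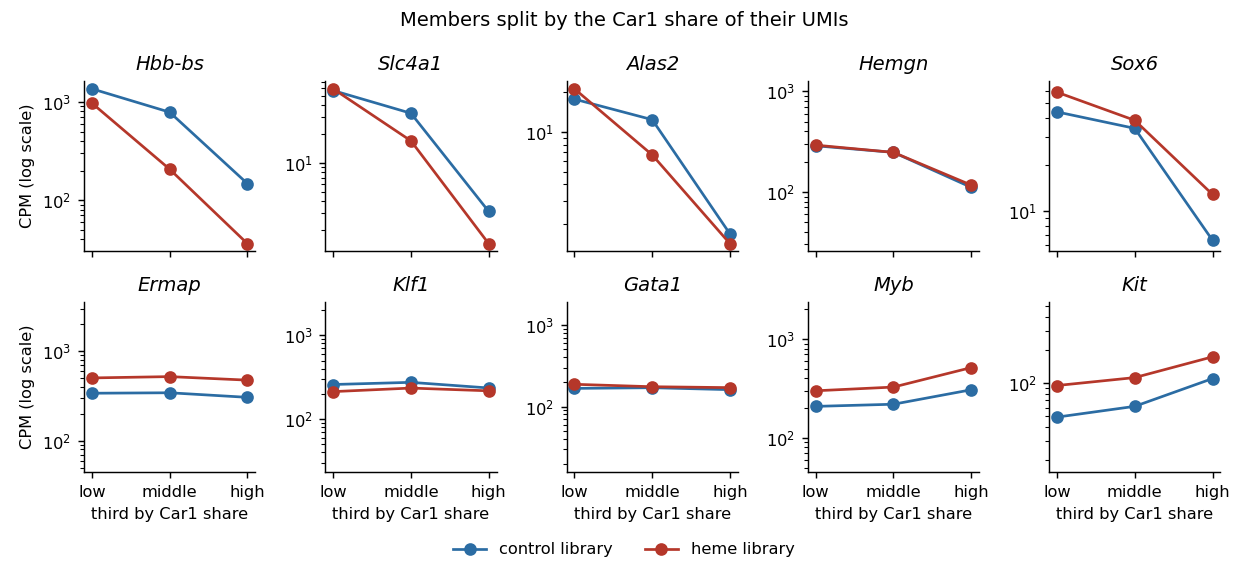
CPM (log scale) of 10 genes in members of the lowest, middle and highest group by the Car1 share of their UMIs, in the control (blue) and heme (red) libraries, each point a sum over 164 to 186 cells. Hbb-bs, Slc4a1, Alas2, Hemgn and Sox6 go down towards the highest Car1 share in both libraries, Gata1, Klf1 and Ermap change by little, and Myb and Kit go up.

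The members of both libraries were collected before heme was added, and what in their comparison belongs to the library, its depth or RNA of the pooled treated cells cannot be told apart. Of 7251 genes, 514 (7.09%) were at least 2-fold higher and 17 (0.234%) at least 2-fold lower in the members of the heme library, with a median log2 ratio of 0.34. The other day 0 cells showed a median of 0.35. With TMM factors the counts were 43 and 292 and the median was -0.10, so the direction of this shift depended on the scaling. Ribosomal protein genes had a median log2 ratio of -0.24 and were below 1 in 67 of 81 cases.

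Some genes exceeded that shift by far. Hmox1 (chr8:75093621-75100589, plus strand), the heme oxygenase that heme induces, was at 0.858 CPM in control and 113 CPM in heme members, a ratio of 132 (69.4 to 290). It was at 2.36 and 114 CPM in the granulocyte progenitors and at 3.04 and 133 CPM in all other day 0 cells. Hmox1 was thus at about the same level in every day 0 population of the heme library, in which cells of days 4, 5 and 7 held 1959, 3517 and 5198 CPM. The macrophage genes Clec4n and Mmp12 had ratios of 7.16 (5.96 to 8.66) and 4.51 (3.98 to 5.12) in members and of 6.46 and 4.66 in the other cells. Wfdc17 and S100a6 were also higher. Pf4 was at 4.96 and 61.8 CPM, and 3 heme members with 10 or more UMIs of Pf4 were found against 0 control members. The part of free RNA and of mixed droplets in these values was not tested. The lowest genes in the heme library were Mgst3, Psmb2, Rpa3, Ubb, Uqcrb and Hbb-bt, with ratios of 0.304 (0.279 to 0.332) for Mgst3 and 0.463 (0.440 to 0.487) for Hbb-bt.

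Erythroid genes differed in both directions between the libraries. Gata1 stood as 166 to 177 CPM, Rhag as 171 to 180 CPM and Hemgn as 214 to 216 CPM. Blvrb at 1172 and 654 CPM, Prdx2 at 1678 and 1031 CPM, Tmem14c at 959 and 546 CPM and the summed globins at 1769 and 880 CPM were higher in the control library. Ermap at 329 and 500 CPM, Tfrc at 241 and 406 CPM, Aqp1 at 282 and 414 CPM, Tal1 at 90.2 and 159 CPM and Ank1 at 71.0 and 124 CPM were higher in the heme library. Kit and Myb were higher in the heme library, as 74.1 to 129 CPM and 245 to 384 CPM. Whether these belong to the cells or to the library cannot be told apart with 1 library each.

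The hashtags by which day 0 was known were sparse on these cells. Members had a median of 412 and 465 hashtag UMIs, the other day 0 cells 677 and 639, although members held more gene UMIs. Per 1000 gene UMIs this was 25.5 and 21.1 in members against 95.3 and 72.9 in the other cells, a measure that also falls with gene depth. The mouse hashtag antibodies of this kind bind CD45 and MHC class I. Ptprc, the gene of CD45, was at 19.4 and 45.7 CPM in members against 130 and 249 CPM, a ratio of 0.149 (0.128 to 0.173) and 0.184 (0.167 to 0.201). The class I gene H2-K1 was at 250 and 261 CPM against 643 and 569 CPM, and B2m at 479 and 408 CPM against 832 and 737 CPM. What the levels of these genes contribute to the hashtag counts was not tested.

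Barcodes to which no hashtag had been assigned included many that met the same rule on counts, with a different profile, and their day is not known. Of 402 such barcodes (control library) and 907 (heme library), 197 and 385 met the rule on genes, Klf1 and Car1 plus Car2. Their globins summed to 43456 and 14632 CPM, with 100 or more globin UMIs in 62.9% and 37.9% of them against 8.99% and 4.26% of the members. Hbb-bs was 28.8-fold (28.1 to 29.5) and 18.2-fold (17.6 to 18.7) above the members, Slc4a1 16.4-fold (14.4 to 18.7) and 19.1-fold (16.9 to 21.7), and Alas2 25.7-fold (20.9 to 31.9) and 15.6-fold (12.8 to 19.2). Kit was at 7.92 and 35.5 CPM and Myb at 37.5 and 122 CPM, both below the members.

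These barcodes also had the lowest levels of the hashtag targets. Ptprc was at 6.86 and 28.6 CPM and H2-K1 at 102 and 142 CPM. B2m was closer to the members, at 415 and 363 CPM, a ratio of 0.866 (0.803 to 0.934) and 0.889 (0.841 to 0.939). They had a median of 227 and 261 hashtag UMIs and of 9451 and 11955 gene UMIs. Per 1000 gene UMIs they had 23.3 and 20.5 hashtag UMIs, close to the 25.5 and 21.1 of the members. Hashtags named for day 0 made up 37.5% and 35.6% of their hashtag UMIs, against 14.1% and 16.4% in the barcodes without a hashtag that did not meet the rule and 68.3% and 63.9% in the members. The members therefore describe the erythroid cells of day 0 that could be assigned to it, and whether the unassigned ones came from day 0 was not tested.

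**Figure D5:**
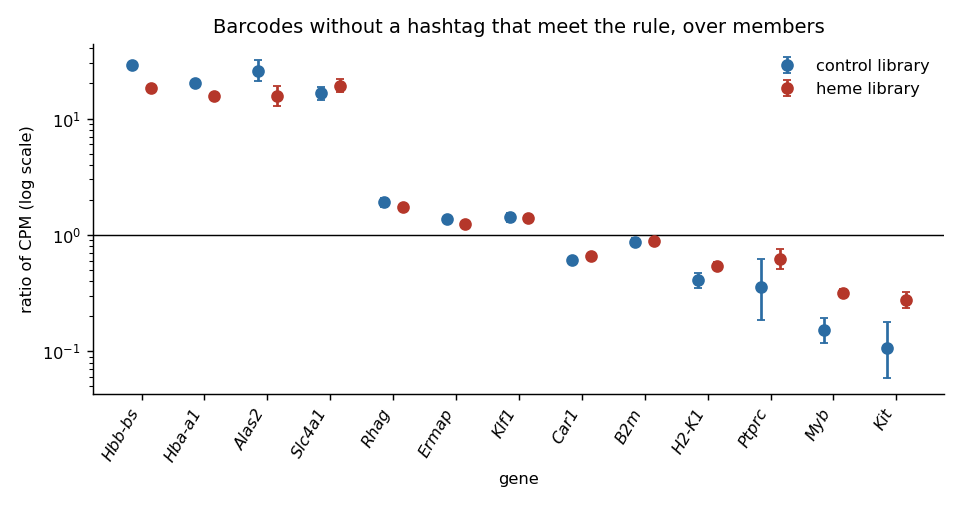
Ratio of CPM (log scale) in barcodes without an assigned hashtag that met the rule (197 and 385) over members (556 and 493), in the control (blue) and heme (red) libraries, with exact 95% intervals for the ratio of 2 Poisson counts. Globins, Alas2 and Slc4a1 lie above 10, Klf1, Ermap and B2m near 1, and H2-K1, Ptprc, Myb and Kit below 1.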

How the data were processed

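Lineage-depleted bone marrow cells were measured by droplet 3′ single-cell RNA sequencing in 2 libraries. In the deposited files each gene has raw UMI counts, made by the authors with Cell Ranger (4.0.0 per the labels, 5.0.0 per the file headers; GRCm38.p6 named in the processing notes), and the deposited hashtag calls were made by the authors with HTODemux of Seurat 3.2.3. Each matrix lists 26124 genes, and hashtag rows were kept apart. No doublet caller was run: multiplets rest on the hashtag calls. The members, gene lists and comparisons were chosen with earlier results of these data known. UMIs were summed per library over members and over other cells and scaled to CPM. A difference counted when it was 2-fold or more the same way in both libraries, among genes with a mean of 10 CPM or more. Between libraries it counted when it was 2-fold with the interval beyond 1. Sums of 0 were set to 3 UMIs. Since each transcript gives 1 UMI at its 3′ end, levels were not divided by length. Intervals were exact (Poisson ratio, Clopper-Pearson; scipy 1.17.1). Steps were tested on simulated counts. Named genes were every gene of the heme synthesis, globin and regulator lists, the 6 most abundant of other lists with their defining markers, outside the lists the 15 highest and 10 lowest ratios and, between libraries, the 6 highest and 6 lowest, all at 50 CPM or more, and the 12 most variable genes; some of these genes are not reported here. Epor, Slc4a1, Ank1, Tfr2, Slc11a2, Slc40a1, Ncoa4, Cdc6, Il1rl1, Lyn, Csf2ra, Csf2rb, Ptprc, Rpp40 and Clstn1, and the barcodes without a hashtag, were added after values had been seen. Positions are whole genes of GENCODE M21 (GRCm38), all protein coding where printed, and promoters are from RefSeq (GRCm38.p6). The alternatives were other cell filters and thresholds, thinning, edgeR 4.0.16 TMM factors, other totals, other comparison cells, a lower count filter, per-cell means and each library alone.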

Additional observations from a re-analysis of the deposited data

Results flagged for a closer look

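Cells that met the rule outside day 0 were not part of any comparison. In the heme library they were 0.823% of the cells of days 3 to 7, above the 0.341% of the control library. The cells concerned had a median of 25910 UMIs and 94.1 CPM of Klf1 (heme library) and of 17005 UMIs and 126 CPM (control library), against 222 and 256 CPM in the members of day 0.

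Barcodes without an assigned hashtag were also outside the comparisons. Of these, 42.4% met the rule in the heme library (interval 39.2% to 45.7%) and 49.0% in the control library (44.0% to 54.0%), above the share among the day 0 cells themselves. Their day of culture is not known, and the reason for the missing hashtag was not tested.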

How the results depend on the processing

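The median log2 ratio of every list kept its sign under the alternatives run, except late maturation, which lay between -0.55 and 0.20. The surface and skeleton median ranged from 1.67 to 7.03. Of the list medians recomputed, 104 differed from the reported value by no more than the SD of both libraries and 83 by more. Of the counts and shares, 188 stayed within 1.5 times the reported count or within the interval of the share, and the 49 given here did not. The study's limits left a share of members of 8.36% (control) and 15.2% (heme), which turned the order of the libraries, and it was 29.5% and 22.8% under the stricter threshold, 20.6% and 15.5% after thinning to 3000 UMIs, and 22.7% and 12.9% without barcodes over 2 times the median depth. Against the other day 0 cells, thinning gave 174 higher and 638 lower genes, 4 higher iron genes and 0 higher S phase genes. TMM factors gave 843 higher genes, with 5 of S phase and 4 of G2/M. The filter of 1 CPM gave 761 higher and 2577 lower genes, with 12 megakaryocyte, 8 lymphoid and 2 late maturation genes lower. The study's limits gave 4 higher globins and 4 S phase genes, and 6 lower neutrophil genes. The stricter threshold gave 1 gene each of S phase and G2/M. Removal of the deepest barcodes gave 4 higher globins. Totals without ribosomal and mitochondrial genes gave 4 S phase genes and 1 of G2/M. Comparison cells without Klf1, Car1 and Car2 gave 4 higher globins, 2 G2/M genes, 6 lower neutrophil genes and 3 megakaryocyte genes. Per-cell means gave 5 S phase, 4 G2/M and 6 neutrophil genes, and the control library alone gave 4, 5 and 6. Between the libraries, higher and lower genes numbered 1059 and 58 without the deepest barcodes, 43 and 292 with TMM factors, and 1565 and 52 at 1 CPM, with 112 lower under the study's limits and 36 lower with the other totals. Across Car1 groups, a cut into 2 gave 0 higher and 33 lower genes, and the study's limits gave 17 higher. The causes were not tested, beyond fewer cells or other genes entering a count. Leaving out mixed members was chosen after seeing the data. No paired analysis was possible because each group is 1 library. Genes near 10 CPM, such as Alas2, rest on about 110 UMIs per library, and at this depth a gene not seen in a member may still be expressed.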

Other observations

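Droplets with several hashtags that included day 0 met the rule in 29.9% of 368 cases in the control library (interval 25.3% to 34.9%) and in 26.6% of 564 cases in the heme library (23.0% to 30.4%). Those with several hashtags and none of day 0 met it in 3.08% of 876 and 2.88% of 1387 cases.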
